A study of Oryza sativa Indica Group with 17 samples.

Results

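Of the 57194 probe sets of the Affymetrix Rice GeneChip, 214 (0.374%) were low in both the d1 line and the G650 line when genomic DNA of the mutants was compared with that of wild type. A probe set is a group of short probes designed for 1 transcript, and the deposited value of a set is the fraction of its perfect match probes whose signal, by the authors' flagging, was reduced relative to wild type. The 214 sets were chosen on these 2 lines, as the sets with a share of 0.5 or more in each of them, and a set at 0.5 or more in an array is said here to be called. Their shares in d1 and G650 are therefore given only as a description. What the choice did not use is the remaining 15 arrays, the names of the sets and the genes paired with them.

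All arrays held DNA from leaves of 45-day-old plants of the indica rice variety IR64, with 1 array per line, and every line was set against wild type IR64. The gamma ray lines are G650, G282, G6485, G6489, G6603, G6686, G6728, G7534, G9799 and G6989, the fast neutron lines are F1856 and F2045, and the lines made with the chemical mutagen DEB (diepoxybutane) are D256, D1137 and D2943. For d1, a dwarf line that lacks RGA1 by the study's account, the sample labels give DEB and the study's methods give gamma ray. G650 is a lesion mimic line of the spl1 type, as are F1856, D1137, D2943, F2045 and G9799 by the study's account, which leaves F2045 and G9799 untested for allelism. The last array is the wild type check, wild type DNA set against wild type, and how its own comparison was formed is not stated. The mean share over all probe sets was 0.0295 in d1 and 0.00768 in G650, ran from 0.00684 to 0.176 over the arrays, and was 0.0745 in the wild type check. Because there is 1 array per line and all lines share the wild type, no test between lines was possible. Counts and medians over the 214 sets are instead set beside the same over all probe sets.

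A deleted stretch of DNA leaves its probes with less DNA to bind, so their signal falls and their share of flagged probes is high. Gamma rays and fast neutrons often remove long pieces of a chromosome, and DEB mostly small ones. Probes whose sequence is found at many places, as in gene families and repeats, report the sum over those places. Plant leaf DNA also holds the plastid and mitochondrial genomes, which are present in many copies per cell and pieces of which also lie in the nuclear chromosomes. The names on this array carry some of this information. Sets named Os. come from clusters of transcripts, while sets named OsAffx come from predicted genes. The ending _at marks a set meant to be unique, _a_at a set for alternative transcripts of 1 gene, _s_at probes shared by several transcripts, and _x_at probes that can also bind unrelated sequences. The letter A or S in a name gives the antisense or sense orientation of the target.

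The share in G650 was generally at or above that in d1. Over the 214 sets, the shares ran from 0.545 to 1 in both lines, with a median of 0.727 in d1 and of 0.818 in G650. G650 was the higher in 142 sets, d1 in 30, and the 2 lines were equal in 42. All probes were flagged in 43 sets in G650, in 14 sets in d1 and in 8 sets in both. In 213 of the 214 sets the values were multiples of 1/11, as sets of 11 probes give, so the smallest possible step in a share is 0.0909.

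The 214 sets were 57.7% of the 371 sets called in d1, where 0.649% of all sets were called, and 78.4% of the 273 sets called in G650, where 0.477% were called. A further 157 sets were called in d1 and not in G650, and 59 in G650 and not in d1. At the edge of the choice, 41 sets had a lower share of 0.545 (6 of 11 probes), among them Os.10026.1.S1_at, Os.20593.2.S1_at and Os.24551.1.S1_at. Just outside it, 31 sets had a lower share of 0.455 (5 of 11 probes), among them Os.26459.1.A1_s_at, Os.26592.3.S1_x_at and Os.26748.1.S1_x_at. In 22 of these 31 sets only d1 was below 0.5, in 3 only G650 was, and in 6 both were.

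**Figure D1:**
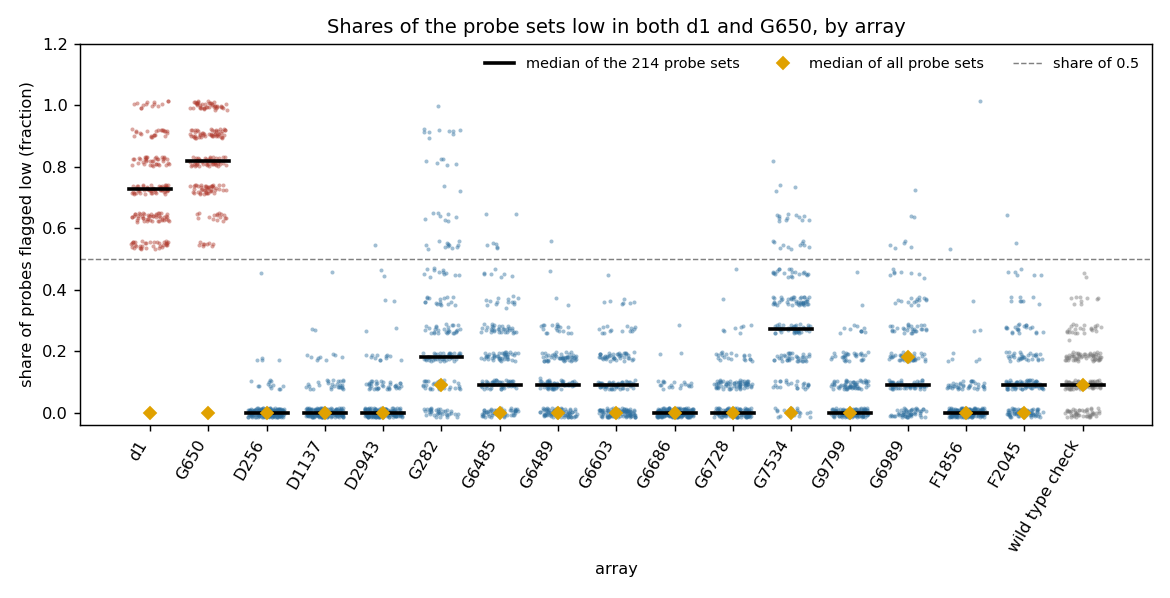
Share of probes flagged low (fraction, vertical axis) in each of the 17 arrays (horizontal axis) for the 214 probe sets. Points are probe sets, shifted slightly to separate them, black bars are their medians, diamonds are medians over all probe sets, and the dashed line is a share of 0.5; d1 and G650 are high by choice, and of the other arrays G7534 (median 0.273) and G282 (median 0.182) had the highest medians.

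Outside d1 and G650, most of the 214 sets were low in no line. In 145 sets no other line was called, in 54 sets 1 line was, in 13 sets 2 lines were, and in 2 sets 3 lines were. The sets called in 1 or more of the 14 other lines thus numbered 69 (32.2%), against 5.57% of all probe sets. This count moved with the threshold and the lines, to 106 at a share of 0.4, 37 at 0.6, 39 with the wild type check subtracted and 32 without G282 and G6989. None of the 214 sets was called in the wild type check, where 0.0192% of all sets were. Their shares there had a median of 0.0909 and a highest value of 0.455, and the median over all sets was also 0.0909. The mean there was nevertheless higher in the 214 sets, 0.131 against 0.0745 over all sets. Fewer of them were at 0, 22.4% against 44.5% of all sets. In 182 of the 214 sets every other line lay below both d1 and G650. The choice of sets high in these 2 lines favours such a count, so it is given only as a description.

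Most of the further calls lay in G282 and G7534. In G282, 38 of the 214 sets were called (17.8%), against 1.73% of all sets, with a median share of 0.182 against 0.0909 over all sets. The count in G282 was 62 at a share of 0.4, 19 at 0.6 and 20 with the wild type check subtracted. In G7534, 27 of the 214 sets were called (12.6%), against 0.157% of all sets, with a median of 0.273 against 0. G282 or G7534 was called in 63 sets, but both in only 2, so these calls fell on largely separate sets. Only 6 sets were called in another line and in neither of these.

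The remaining lines called few of the 214 sets or none. G6485 called 7 of the 214 sets, where 0.0402% of all sets were called, and G6989 called 8, where 2.55% were. G6989 has the highest mean share of all arrays (0.176), and its median over the 214 sets was 0.0909, against 0.182 over all sets. No set was called in D1137, although 1.44% of all sets were called there. Likewise none was called in D256 (0.0297% of all sets), G6603 (0.247%), G6686 (0.0559%), G6728 (0.0315%) or G9799 (0.0944%). The medians over the 214 sets were 0 in D256, D1137, D2943, G6686, G6728, G9799 and F1856, and 0.0909 in G6485, G6489, G6603 and F2045.

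The few calls in the other lines can be named, although these sets were picked after their values were seen. Os.47976.1.S1_at was called in D2943 (0.545), where 0.014% of all sets were called, and in F1856 (0.545), where 0.0839% were. Os.46404.1.S1_x_at had all its probes flagged in F1856 and a share of 0.727 in both d1 and G650. In F2045, where 0.192% of all sets were called, OsAffx.32222.1.S1_at had 0.636 and OsAffx.32312.1.A1_at 0.545. The 1 set called in G6489, where 0.0559% of all sets were called, was OsAffx.32229.1.S1_x_at at 0.545.

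The sets called in d1 and not in G650 were, like the 214, most often called in G282, while those called in G650 and not in d1 were most often called in F1856. Of the 157 sets called in d1 and not in G650, 96 (61.1%) were called in G282, 57 (36.3%) in F2045 and 9 (5.73%) in G7534. Of all sets, G282 called 1.73%, F2045 0.192% and G7534 0.157%. Of the 59 sets called in G650 and not in d1, 17 (28.8%) were called in F1856, 16 (27.1%) in G9799, 14 (23.7%) in F2045 and 4 (6.78%) in G282. F1856, G9799 and F2045 are radiation lines of the spl1 type, and F1856 called 0.0839% and G9799 0.0944% of all sets. The DEB lines of that type, D1137 and D2943, called 3 and 1 of the 59 sets. They called 1.44% and 0.014% of all sets. Sets called in 1 or more of the 14 other lines made up 32.2% of the 214, 69.4% of the 157, 42.4% of the 59 and 5.57% of all sets. These differences were not tested, since the groups were cut on the same arrays.

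**Figure D2:**
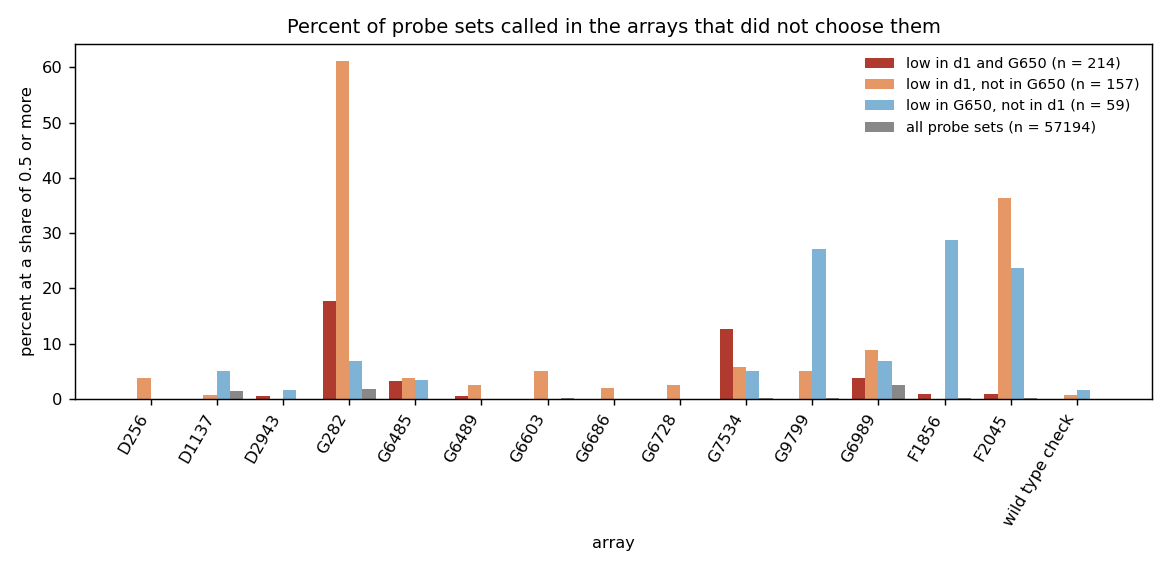
Percent of probe sets at a share of 0.5 or more (vertical axis) in each of the 15 arrays that did not choose them (horizontal axis). Bars stand for the 214 sets low in d1 and G650, the 157 low in d1 alone of these lines, the 59 low in G650 alone of these lines, and all 57194 sets; for the 214 sets the tallest bars are G282 (17.8%) and G7534 (12.6%).

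By name, the 214 sets were mostly OsAffx sets, 126 of them from 1 run of high name numbers, and often of the kinds whose probes can bind more than 1 sequence. OsAffx names were borne by 158 of the 214 sets (73.8%), against 44.6% of all sets, and by 89.8% of the sets called in d1 and not in G650 and 57.6% of those called in G650 and not in d1. Without the run there was no such excess, as 32 of the remaining 88 sets (36.4%) had OsAffx names. The ending _x_at was borne by 88 (41.1%), against 12.5% of all sets, and _s_at by 21 (9.8%), against 4.9%. The other 103 ended in _at and 2 in _a_at. Together, _x_at and _s_at made up 50.9% of the 214 sets, 24.2% of those called in d1 and not in G650, 44.1% of those called in G650 and not in d1 and 17.4% of all sets.

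Taken by class over the whole array, 73 of the 3498 OsAffx sets ending in _x_at (2.09%) were among the 214. The OsAffx sets ending in _s_at gave 12 of 1267 (0.947%), and those ending in _at gave 73 of 20735 (0.352%). Among the Os. sets, 9 of 1546 ending in _s_at (0.582%), 15 of 3658 ending in _x_at (0.410%), 2 of 1407 ending in _a_at (0.142%) and 30 of 25083 ending in _at (0.120%) were among the 214. Outside the run, OsAffx sets ending in _x_at gave 18 of 3419 (0.526%), still above the Os. sets with that ending (0.410%). The OsAffx sets ending in _s_at gave 4 of 1259 (0.318%) there and those ending in _at 10 of 20565 (0.0486%). Each of these was below the Os. sets with the same ending. The letter A stood in 84 of the 214 names (39.3%), against 7.5% of all names, and in 18.2% of the 88 names outside the run. The medians in d1 (0.727) and G650 (0.818) were the same for OsAffx and Os. names, for both letters, and for _at and _x_at. The 21 sets ending in _s_at had medians of 0.818 in d1 and 0.909 in G650, the 2 ending in _a_at 0.909 and 0.727, and the 126 sets of the run 0.727 and 0.909.

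**Figure D3:**
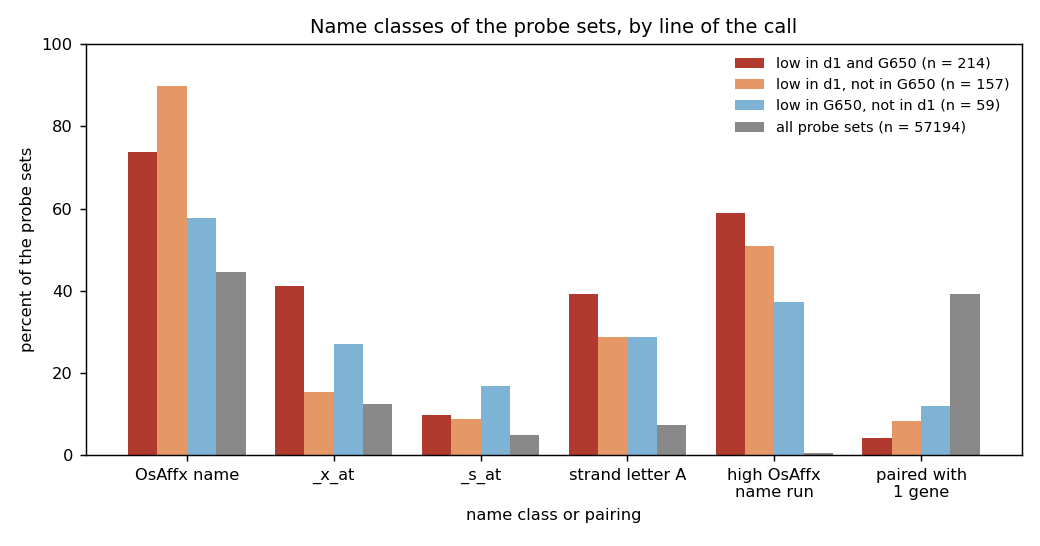
Percent of probe sets (vertical axis) with each kind of name or pairing (horizontal axis), for the 214 sets low in d1 and G650, the 157 and 59 sets low in 1 of the 2 lines only, and all 57194 sets. OsAffx names (73.8% against 44.6% of all sets) and _x_at endings (41.1% against 12.5%) were more frequent in the 214 sets. So was the letter A (39.3% against 7.5%). Pairing with 1 gene was less frequent (4.2% against 39.2%), but it is rare among all OsAffx sets (1.75%). Without the high OsAffx name run, OsAffx names made up 36.4% and the letter A 18.2%.

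The names were also concentrated in number. OsAffx sets are numbered up to 32350, and 126 of the 214 sets (58.9%) lay in the single run of numbers from 32189 to that end. The run was drawn after the names were seen, as the longest series of numbers of called sets with gaps of at most 100. It holds 257 probe sets, 0.449% of the array, of which 49.0% were among the 214, against 0.155% of the 56937 sets outside it. In this run 206 sets were called in d1 and 148 in G650. A name number is not a place in the genome, and only 1 of the 257 sets was paired with a gene, so where these sets lie was not tested. Of the sets in the run, 52.1% bore the letter A, against 4.82% of the OsAffx sets with lower numbers.

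Along the run, sets low in both lines alternated with sets low in d1 alone. From 32189 to 32241, 69 of 81 sets were low in both lines, with medians of 0.727 in d1 and 0.818 in G650. From 32242 to 32254 none of 21 sets was, as d1 had a median of 0.636 and G650 of 0. The pattern of the first stretch came back from 32255 to 32268, where 16 of 21 sets were low in both (medians 0.636 in d1 and 0.818 in G650). From 32269 to 32308 none of 61 sets was low in both, with medians of 0.636 in d1 and 0 in G650. From 32309 to 32350, 41 of 73 sets were low in both, with medians of 0.727 in each line. This last stretch was mixed, as 63 of its sets were called in d1 and 46 in G650. The bounds of these stretches are gaps of over 12 numbers between sets of the 214, so the zeros follow from how the stretches were cut.

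The other lines were not used for these bounds, and they varied with the stretches. In the 2 stretches with none of the 214 sets, G282 had medians of 0.545 and 0.545 and called 12 of 21 and 38 of 61 sets. F2045 had medians of 0.364 and 0.455 there and called 6 of 21 and 25 of 61 sets. In the 3 stretches that hold sets of the 214, G282 had medians of 0.182, 0.273 and 0.273 and called 5 of 81, 2 of 21 and 17 of 73 sets. F2045 had medians of 0.0909, 0.0909 and 0.182 there and called 1 of 81, 0 of 21 and 9 of 73 sets, so the last stretch lay nearest to the stretches without any. The medians of G7534 showed no such division, at 0.273 in 4 of the 5 stretches and 0.0909 from 32242 to 32254. Its calls did differ, in the direction opposite to G282 and F2045. G7534 called 16 of 81, 2 of 21 and 7 of 73 sets in the 3 stretches, and 1 of 21 and 3 of 61 in those without any of the 214 sets. The wild type check had a median of 0.0909 in all 5 stretches.

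Over the whole run, G282 and F2045 called more of the sets low in d1 alone than of those low in both lines. The 126 sets low in both lines were called in G7534 23 times, in G6485 6 times, in G282 5 times and in F2045 2 times. The 80 sets low in d1 and not in G650, of which 61 had a share of 0 in G650, were called in G282 58 times, in F2045 37 times, in G7534 5 times and in G6485 never. The median in G7534 was 0.273 for both groups. The 22 sets low in G650 and not in d1 had a median of 0.364 in d1, so many of them were short of the threshold in d1 rather than at 0. In the remaining 29 sets of the run neither line was called.

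**Figure D4:**
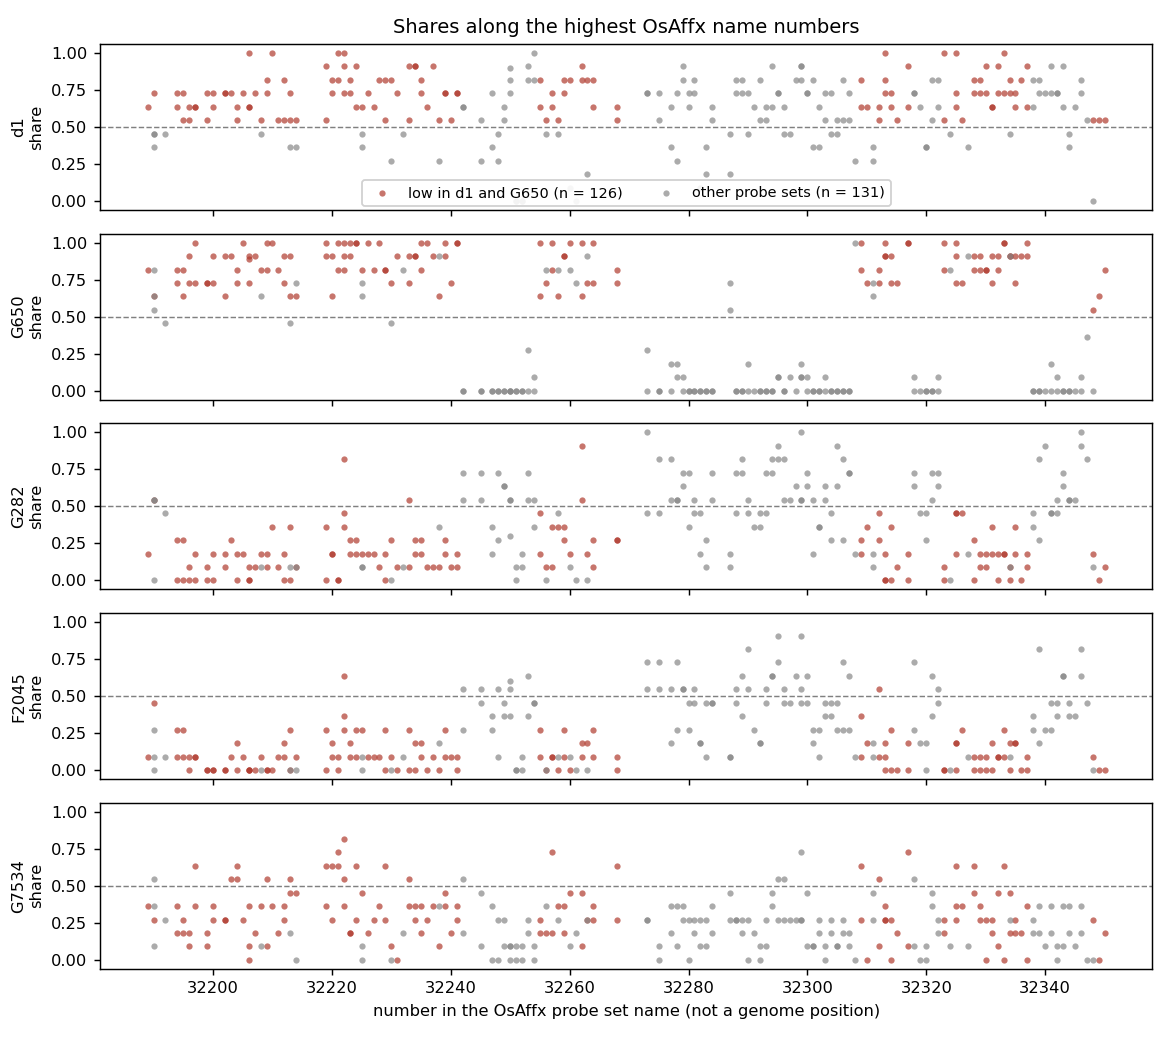
Share of probes flagged low (fraction, vertical axes) in d1, G650, G282, F2045 and G7534 for the 257 OsAffx probe sets numbered 32189 to 32350, by the number in the name (horizontal axis). Red points are the 126 sets low in d1 and G650, grey points the other 131, and the dashed line is a share of 0.5; G650 has medians of 0 over the stretches 32242 to 32254 and 32269 to 32308, where G282 has medians of 0.545.

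A smaller cluster of names was found among the Os. sets. Numbers from 26436 to 26770, drawn by the same rule, held 270 sets, of which 24 (8.89%) were among the 214. The Os. sets with lower numbers gave 5 of 15094 (0.0331%) and those with higher numbers 27 of 16330 (0.165%). In this cluster G282 called 4 of 270 sets, where 1.73% of all sets were called, and G7534 called 5, where 0.157% were.

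The 88 sets outside the OsAffx run were called in G282 more often than those in it, a difference that was not tested. Of these, 56 have Os. names and 32 have OsAffx names, and G282 called 21 (37.5%) and 12 (37.5%) of them, against 5 of the 126 in the run (3.97%). G7534 called 4 (7.14%) of the 56 and none of the 32, against 23 of the 126 in the run (18.3%). Called in 1 or more other lines were 40 of the 88 sets outside the run (45.5%) and 29 of the 126 sets in it (23.0%). By ending, G282 called 26 of 103 _at sets, 8 of 88 _x_at sets and 2 of 21 _s_at sets. G282 also called 2 of the 2 _a_at sets. Over all probe sets, G282 called 1.73% and G7534 0.157%, and 5.57% were called in 1 or more other lines. By name, G282 called 2.07% of all Os. sets, 1.31% of all OsAffx sets and 28.8% of all 257 sets in the run.

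Sets that share the cluster number of their name mostly fell together, chiefly within the OsAffx run. The 214 sets come from 144 cluster numbers, of which 83 have 2 or more sets on the array. In 56 of these 83 every set on the array was among the 214, and most of the 56 lie in the OsAffx run. Outside the run, cluster numbers with only some sets among the 214 outnumbered those with every set. Examples are Os.24551 with 1 of its 4 sets and Os.26592 with 1 of its 5. For 51 cluster numbers, most of them in the run, sets of both orientations were included, 107 sets in all. Such sets may share target sequence, so they are not independent measurements of a line.

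There were 8 cluster numbers with 3 or more of the 214 sets, and 6 of them are described. OsAffx.26050 had the most, with 4 of its 9 sets: these had shares of 0.545, 0.818, 0.727 and 0.636 in d1 and of 0.727, 0.727, 0.909 and 0.818 in G650. None of its 4 sets exceeded 0.364 in another line. All 3 sets of Os.26688 had 0.818 in G650 and 0.818, 0.727 and 0.818 in d1, with no other line above 0.364. The 3 sets of Os.47372, of both orientations, had 0.727, 0.636 and 0.545 in d1 and 0.727, 0.636 and 0.727 in G650, again with no other line above 0.364. OsAffx.30475 had 3 of its 5 sets included, at 0.727, 0.636 and 0.727 in d1 and 0.818, 0.636 and 0.909 in G650, with 0.273 as the highest share in any other line.

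The last pair of cluster numbers lies in the OsAffx run. OsAffx.32206.1.S1_at, a set whose values are not multiples of 1/11, had 1 in d1 and 0.889 in G650, and its companions OsAffx.32206.1.A1_at and OsAffx.32206.1.S1_x_at had 0.636 each in d1 and 0.727 and 0.909 in G650. No other line was called in any of these 3 sets. OsAffx.32222 stood out from this pattern. OsAffx.32222.1.S1_at had 1 in d1 and 0.909 in G650, and was also called in G282 (0.818), F2045 (0.636) and G7534 (0.545), while the wild type check was at 0. OsAffx.32222.1.S1_s_at had 0.909 in d1, 1 in G650 and 0.818 in G7534, but 0.455 in G282. OsAffx.32222.1.A1_at had 0.727 in d1 and 0.818 in G650 and reached no more than 0.364 in another line.

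Ranked by the lower share of the 2 lines, 10 sets stood at the top. In 8 of these all probes were flagged in d1 and in G650: Os.26455.2.S1_s_at, Os.26604.1.S1_x_at, Os.26612.1.S1_at, OsAffx.32210.1.A1_at, OsAffx.32313.1.S1_x_at, OsAffx.32323.1.S1_s_at, OsAffx.32333.1.S1_x_at and OsAffx.8236.1.S1_x_at. A lower share of 0.909 was held by 19 further sets, of which Os.26596.1.S1_s_at and Os.26739.1.A1_at, each with 0.909 in d1 and 1 in G650 as in 9 sets, come first only by table order. In the other lines these sets were far from alike. OsAffx.32323.1.S1_s_at ranged over the other 14 lines only from 0 to 0.273 with a median of 0, and the wild type check was at 0. OsAffx.8236.1.S1_x_at ranged from 0 to 0.545 with a median of 0.409, the highest of all 214 sets, and had 0.273 in the wild type check. Os.26455.2.S1_s_at reached 0.909 in G282 and 0.727 in G6989, with a median of 0.0455 over the 14 lines and 0 in the wild type check.

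Over the 14 other lines, the medians of the 214 sets ran from 0 to 0.409, with a middle value of 0.0455. After OsAffx.8236.1.S1_x_at, 5 sets followed at 0.273: Os.26612.1.S1_at, Os.46208.1.S1_s_at, OsAffx.32213.1.S1_s_at, OsAffx.32219.1.A1_x_at and OsAffx.32222.1.S1_at. OsAffx.32222.1.S1_s_at and OsAffx.32229.1.S1_x_at had medians of 0.227, and Os.26436.1.S1_at and Os.26592.2.A1_x_at had medians of 0.182, a value shared by 13 sets, of which these come first in table order. In the wild type check these 10 sets lay between 0 and 0.364, with the highest value in Os.46208.1.S1_s_at. At the other end, OsAffx.32314.1.S1_at had 0.727 in both d1 and G650 and 0 in all 14 other lines, with 0.0909 (1 probe) in the wild type check. OsAffx.32349.1.A1_at had 0.545 in d1 and 0.636 in G650, 1 probe flagged in F1856 (0.0909), and 0 in the 13 remaining lines and in the wild type check.

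Few of the 214 sets could be tied to a gene. Only 10 were paired with a gene (9 with exactly 1 and 1 with several), which is 4.7% of them, against 39.4% of all probe sets. Pairing differs by kind of name, as 1.75% of all OsAffx sets and 69.7% of all Os. sets were paired. Of the 56 Os. sets among the 214, 8 were paired (14.3%). Of the OsAffx sets among the 214, 1 of 126 in the run and 1 of 32 outside it were paired. Genes were placed on chromosomes by the ASM3414082v1 assembly of japonica rice, which was used for names and order only. Apart from the plastid gene atpI, these genes have locus names without a described function in the tables used.

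**Figure D5:**
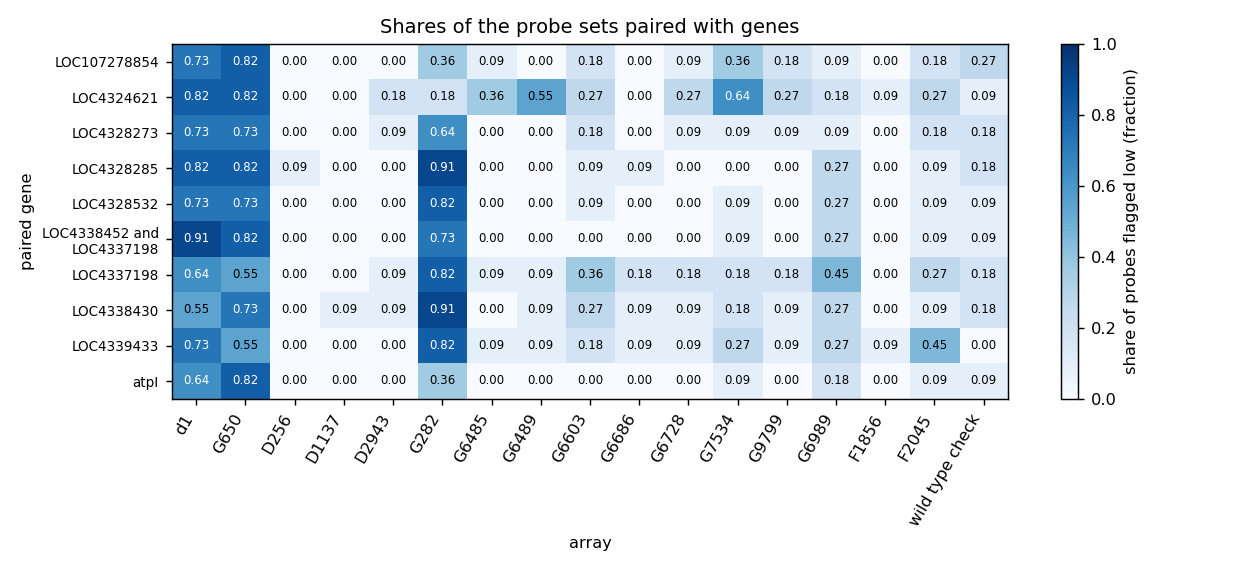
Share of probes flagged low (fraction, colour and printed value) for the 10 probe sets of the 214 that are paired with a gene (rows) in the 17 arrays (columns). Shares are high in d1 and G650 by choice, G282 is at 0.636 or more in 7 rows, and in the wild type check no row exceeds 0.273.

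In these 10 sets the further line was nearly always G282. G282 called 7 of the 10 (median 0.773), against 38 of all 214 and 1.73% of all probe sets. Outside the OsAffx run, where 9 of the 10 lie, G282 called 33 of 88 sets. G7534 and G6489 each called 1 of the 10, where 0.157% and 0.0559% of all sets were called. No other line called any of the 10. On chromosome 2, LOC4328285 (Os.26890.1.A1_x_at) had 0.818 in both d1 and G650 and 0.909 in G282. Over the 14 other lines its shares ran from 0 to that value with a median of 0, and the wild type check had 0.182. LOC4328532 (Os.54895.1.S1_at, chromosome 2) had 0.727 in both lines and 0.818 in G282, with a median of 0 over the 14 lines and 0.0909 in the wild type check. G282 was thus as high as the 2 chosen lines for both genes, and the next highest line was G6989 at 0.273. LOC4328273 (Os.52587.1.S1_at), also on chromosome 2, had 0.727 in both lines and 0.636 in G282, with a median of 0.0909 over the 14 lines and 0.182 in the wild type check.

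The genes on chromosomes 4 and 5 had the same trio of lines. LOC4338430 (Os.20593.2.S1_at, chromosome 5) had 0.545 in d1, 0.727 in G650 and 0.909 in G282, with a median of 0.0909 over the 14 lines and 0.182 in the wild type check. LOC4339433 (Os.54943.1.S1_at, chromosome 5) had 0.727 in d1, 0.545 in G650 and 0.818 in G282, with a median of 0.0909 and a wild type check of 0. LOC4337198 (Os.5882.1.S1_at, chromosome 4) had 0.636 in d1, 0.545 in G650 and 0.818 in G282, with the highest median of these 3 genes (0.182) and 0.182 in the wild type check. For all 3, G282 was above both chosen lines. Os.15221.1.S1_a_at had 0.909 in d1, 0.818 in G650 and 0.727 in G282, with a median of 0 over the 14 lines and 0.0909 in the wild type check. It is paired with both LOC4338452 on chromosome 5 and LOC4337198 on chromosome 4, and the 2 genes cannot be told apart by this set.

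The other 3 paired sets were below 0.5 in G282. LOC107278854 (Os.46437.1.S1_s_at, chromosome 9) had 0.727 in d1, 0.818 in G650, at most 0.364 in another line (G282 and G7534), a median of 0.0909 and 0.273 in the wild type check. LOC4324621 (OsAffx.32229.1.S1_x_at, chromosome 1), the 1 paired set of the OsAffx run, had 0.818 in both d1 and G650, 0.636 in G7534, 0.545 in G6489 and 0.182 in G282. Its median over the 14 lines was 0.227 and its wild type check 0.0909. The last is atpI (OsAffx.22955.1.S1_x_at), which encodes a subunit of the plastid ATP synthase. It had 0.636 in d1 and 0.818 in G650, ran from 0 to 0.364 (G282) over the 14 lines with a median of 0, and had 0.0909 in the wild type check.

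Other probe sets of the same genes did not always share the low values. For LOC4324621, Os.7240.2.S1_a_at was at 0 in both d1 and G650, and so was Os.52587.2.S1_at for LOC4328273. For LOC4338430, Os.20593.1.S1_x_at had 0.0909 in each line. For LOC4328532, Os.54895.1.S1_x_at was just below 0.5, with 0.364 in d1, 0.455 in G650 and 0.545 in G282. In each of these 4 genes only 1 of the 2 sets was thus called in d1 and G650. LOC4337198 was the exception, as both sets paired with it, Os.5882.1.S1_at and Os.15221.1.S1_a_at, were called in d1, G650 and G282.

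The genes next to the paired genes were looked at too, taking up to 2 measured genes on each side in the order of the assembly. Of 36 such neighbours of 9 placed genes, 21 were at 0 in both d1 and G650. None was called in G650, where the highest share was 0.182, and 4 were called in d1. These 4 lie by LOC4338430 and LOC4338452 on chromosome 5, within the run of low genes of d1 that holds RGA1, the alpha subunit gene of the heterotrimeric G protein. LOC4338430 precedes LOC4338442 (a share of 1 in d1, 0.0909 in G650) in that order, and LOC4338452 follows RGA1.

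The genes listed for each line's own low interval were absent from the 214 sets. All 7 probe sets of the 6 listed genes of the d1 run on chromosome 5 were called in d1 and none in G650. RGA1 itself had 0.909 (Os.5302.1.S1_a_at) and 0.545 (Os.14876.1.S1_at, paired with 2 genes) in d1, against 0 and 0.182 in G650. All 5 sets of the 4 listed genes of the chromosome 12 interval were called in G650 and none in d1. CYP71P1, the cytochrome P450 gene of that interval, had 0.636 and 0.727 in G650 and 0 in d1. These lists were taken from an earlier account of these data.

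Genes of the organelle genomes were measured by only 2 paired sets, and they divided. The plastid gene atpI was among the 214 sets, with the values given above. The mitochondrial gene cob (OsAffx.22951.1.S1_s_at), which encodes cytochrome b of the respiratory chain, had 0.818 in d1 and 0 in G650, 0.727 in G282 and 0.545 in F2045, and 0 in the wild type check. The 2 stretches of the OsAffx run without any of the 214 sets each had medians of 0.636 in d1, 0.545 in G282 and 0 in G650. In F2045 their medians were 0.364 and 0.455, below the 0.5 of a call. Whether the unpaired sets of the run match organelle DNA was not tested, since no probe sequences were used here.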

How the data were processed

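Genomic DNA was hybridized to 1 array per line. The deposited values are fractions of the perfect match probes of each set that were flagged by the authors. They averaged 2 scans, scaled signals to the wild type average without background correction, and took log2 ratios to wild type per probe; the cutoff for flagging is not stated beside the values. Per the labels, probe data were read with affy (version not given). Signal over background is unknown here, and a share is no finer than its 11 probes.

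Python 3.11.15 with numpy 2.4.6, pandas 2.3.3, scipy 1.17.1 and matplotlib 3.10.9 was used. A set was called at 0.5 or more. The probe sets and lists were chosen with earlier results of these data known. Named sets are those paired with a gene, the 10 with the highest lower share of d1 and G650, the 10 with the highest median over other lines, those at 0 in most other arrays, sets at the threshold, 6 cluster numbers with 3 or more sets, and sets called in the wild type check (none). RGA1, CIPK18 and CYP71P1 were matched by synonym. In 20 simulated tables of 57194 sets, all 200 planted sets were found in each. The planted shares all lay above the threshold, so this checks the code only and not the detection of deletions. Alternatives were thresholds of 0.4 and 0.6, centring on array medians, subtraction of the wild type check, frequent sets left out, sets of 11 probes, 1 set per cluster number, lines left out and, chosen after seeing the data, the OsAffx run left out.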

Additional observations from a re-analysis of the deposited data

How the results depend on the processing

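The 214 sets numbered 245 at a threshold of 0.4 and 173 at 0.6, 145 with the wild type check subtracted and 144 with 1 set per cluster number. Sets called in G282 were 62 at 0.4, 19 at 0.6 and 20 with the wild type check subtracted, and sets called in 1 or more other lines were 106, 37 and 39 at these settings, beside 38 and 69 as reported. With G282 and G6989 left out, 32 sets were called in 1 or more other lines. Without the OsAffx run, a setting chosen after seeing the data, 88 sets remained, 36.4% had OsAffx names and 40 were called in 1 or more other lines. With 1 set per cluster number, 67.4% had OsAffx names and 37.5% ended in _x_at or _s_at. The median moved by over 1 probe in 2 cases, to 0.364 in G282 without the run and to -0.0909 in G6989 after centring. The shift in G6989 is the subtraction of its median over all sets (0.182). For the other changes the cause was not tested, apart from the sets each setting drops. The other 38 values stayed within 1.5 times or within the counting interval, for example 26 sets called in G282 after centring and 6 sets paired with 1 gene (9 as reported), and 118 of 120 medians moved by at most 1 probe. Some of these values could not change. Centring kept the same 214 sets because d1 and G650 have medians of 0 over all sets. Leaving out frequent sets dropped none of the 214, so every value there was fixed. No paired analysis was possible because there are no replicate arrays. With 1 array per line, spread between plants or hybridizations is unknown, all lines share the wild type, and a share of 11 probes cannot resolve steps under 0.0909.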
